A study of Mus musculus with 13 samples.

Results

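Retinoic acid synthesis and response genes were followed through the RNAseq libraries of differentiating mouse embryonic stem (ES) cells. These were the 9 genes Aldh1a2, Cyp26a1, Rara, Rarb, Rarg, Rxra, Rxrb, Crabp1 and Crabp2, found by gene name among the 45250 genes of the deposited table, with 1 row for each. The study examined how LMO2, a bridging protein without DNA binding of its own, and its partner TAL1, a basic helix-loop-helix transcription factor, act when mesoderm is specified towards blood. The libraries were WT, Lmo2-/- and Tal1-/- Flk-1+ cells (3 libraries each) and WT and Lmo2-/- HE1 (2 libraries each). Flk-1+ cells, the fraction enriched for haemangioblasts (HBs), were taken by magnetic sorting from embryoid bodies grown in medium with serum. HE1 is the first stage of haemogenic endothelium, sorted as Tie2+ Kit+ CD41- cells from blast cultures of Flk-1+ cells that received VEGF, IL-6 and conditioned medium. No retinoic acid or inhibitor of its signalling was named in the labels or methods of these libraries. The WT cells were CCB ES cells and each mutant genotype came from its own ES line, so that genotype and line cannot be told apart. The study describes its libraries as independent biological replicates, while the labels name no separate differentiation for each, and the p-values measure the spread between these libraries of 1 ES line per genotype. The chromatin samples of the series were not analysed here.

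Retinoic acid is made from vitamin A, carried by serum as retinol, in a pair of oxidation steps, the last of them by retinaldehyde dehydrogenases such as ALDH1A2, the main enzyme of the early embryo. Inside the cell it is bound by CRABP proteins, hydroxylated and so removed by CYP26 enzymes, or sensed by the receptors RARA, RARB and RARG, which sit on DNA together with an RXR partner and exchange co-repressors for co-activators when retinoic acid binds. Cyp26a1 and Rarb are themselves textbook targets of this receptor pair, and in the gastrulating embryo CYP26A1 keeps retinoic acid low in early mesoderm while ALDH1A2 appears as mesoderm matures.

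The promoters were searched for the kind of sequence that receptor pairs bind, a direct repeat of a 6-base half-site. The half-site AGGTCA was looked for on both strands, together with its forms AGTTCA as well as GGGTCA, and besides these GGTTCA, with 1, 2 or 5 bases between them, in RefSeq windows of 300 bases (250 before to 50 after each start, GRCm38.p6). Of 14 windows over 8 of the genes, only those of Cyp26a1 and Rarb held a match, both with 5 bases between the half-sites. Among all 32851 windows, 0.0974% held a repeat with 5 bases between, 0.268% with 2 and 0.222% with 1. Both matches lay on the minus strand, and they are shown because they are the only ones among the genes described here, with the half-sites in capitals:
Cyp26a1, chr19:37697776-37697792: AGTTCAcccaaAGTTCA
Rarb, chr14:16575513-16575529: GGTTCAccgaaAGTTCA
The Cyp26a1 match lay 32 to 16 bases before the RefSeq start of a gene on the plus strand. Its GENCODE M21 start, 37697798, is a different one. The Rarb match lay 53 to 37 bases before the RefSeq start of a gene on the minus strand, inside an exon of its 5′ UTR in GENCODE M21. The stretch around the Cyp26a1 match, from the plus strand, overlapped no annotated exon, and here the capitals mark the whole match read from the opposite strand:
Cyp26a1 promoter, chr19:37697678-37697797: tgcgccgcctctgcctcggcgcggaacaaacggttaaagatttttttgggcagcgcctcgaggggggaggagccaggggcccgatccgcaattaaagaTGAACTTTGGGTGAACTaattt
The match is a description of these letters and not evidence of binding in these cells.

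All levels are FPKM, a fragment count scaled for transcript length and library size, which allows levels of different genes to be set side by side. Tests were made by limma on log2(FPKM + 1) across 13802 genes, and a gene was called when its Benjamini-Hochberg adjusted p was below 0.05 and its mean FPKM exceeded 10 in at least 1 group compared. Of the 9 genes, 8 passed the filter on low values, which asked for 2 libraries with 1 FPKM or more, and Rarb did not. The knocked-out genes were measured first. Lmo2 was 21.6 to 30.8 FPKM in the WT Flk-1+ libraries and 2.17 to 6.48 in the Lmo2-/- ones, and Tal1 was 22.0 to 37.4 in WT and 2.74 to 3.41 in Tal1-/- Flk-1+ libraries. In HE1, Lmo2 was 4.30 and 20.7 in the libraries labelled WT and 6.42 and 0 in those labelled Lmo2-/-, so that the targeted gene does not separate these 4 libraries. Markers of haemogenic endothelium summed to 9.40 to 32.6 FPKM in Flk-1+ and to 691 to 755 in HE1 libraries. The sum rested mainly on Tek, Kit, Cdh5 and Pecam1, each higher in every HE1 library than in any Flk-1+ library. Runx1 was lower in WT HE1 (5.91 and 5.42) than in WT Flk-1+ libraries (8.15 to 17.2). Gfi1 was at 0 in both Lmo2-/- HE1 libraries, and Sox17 was at 0 in replicate 1 of them. Lmo2-/- HE1 replicate 1 stood apart from the rest. It had 9694 genes above 0, against 11861 to 15641 elsewhere, and was the highest library of all for 33.4% of the genes tested, against 2.33% to 12.5% for any other library. The files give no read counts, so the depth is unknown.

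In WT HBs the gene of retinoic acid removal was the most abundant of the 9. Cyp26a1 averaged 31.9 ± 5.21 FPKM (SD, n = 3), above 92.0% of the genes tested. The next in order was the carrier Crabp1 at 11.4 ± 4.42, followed by the receptor genes Rxra at 9.68 ± 6.88, Rxrb at 8.76 ± 4.98, Rarg at 7.96 ± 3.27 and Rara at 6.71 ± 3.03. Neighbours in this order, from Crabp1 down to Rara, differed by less than their spread over libraries. The other genes lay far lower, with Crabp2 at 0.797 ± 0.278, the synthesis gene Aldh1a2 at 0.502 ± 0.212 and Rarb at 0.181 ± 0.0979. Crabp2 and Aldh1a2 overlapped in their values, and Aldh1a2 stood above 9.6% of the tested genes. The removing enzyme was thus among the more abundant transcripts of WT HBs and the synthesising one among the scarcer.

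**Figure D1:**
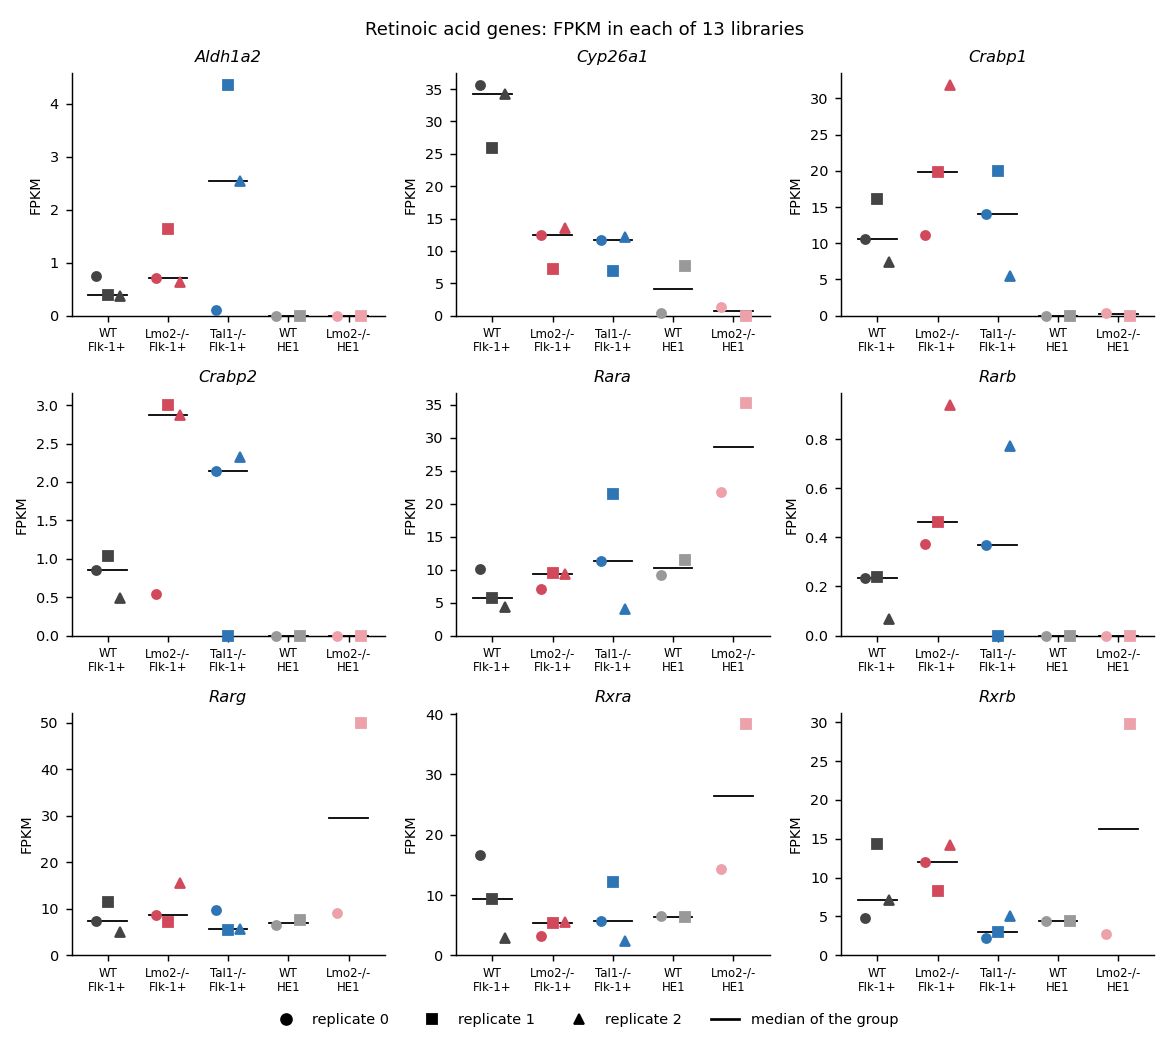
FPKM (linear axis from 0, different for each panel) of each of the 9 retinoic acid genes in the 13 libraries, grouped by genotype and stage, with 1 symbol for each replicate and a bar at the group median. Cyp26a1 is highest in the 3 WT Flk-1+ libraries (26.0 to 35.7), Crabp1 is at or near 0 in HE1, and 1 of the 2 Lmo2-/- HE1 libraries is highest for Rara, Rarg, Rxra and Rxrb.

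The first question was whether loss of LMO2 or of TAL1 altered these genes in HBs. None of the 8 genes tested was called, and among all genes 0.0% were called between WT and Lmo2-/-, 0.0% between WT and Tal1-/- and 0.0145% (2 genes) between both mutants in the Flk-1+ fraction. The knocked-out genes Lmo2 and Tal1 were thus not called in their own mutants either, despite the separate values given above. A missing call here therefore does not show that a gene was unaltered. At an unadjusted p below 0.05, 1 of the 8 genes passed in each of these 3 comparisons, beside 307, 843 and 822 of all genes in that order. The comparisons of each mutant with WT share the WT libraries. The gene with separate values in both was Cyp26a1.

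Cyp26a1 (chromosome 19, 37697798 to 37701536, plus strand, GRCm38) encodes the hydroxylase that starts the breakdown of retinoic acid. It measured 35.7, 26.0 and 34.2 FPKM in the WT Flk-1+ libraries, 12.4, 7.19 and 13.6 in the Lmo2-/- libraries, and 11.6, 6.96 and 12.2 in the Tal1-/- libraries. Every mutant library lay below every WT library, while those of both mutants covered nearly the same range. The mean was 2.88 times higher in WT than in Lmo2-/- cells (11.1 ± 3.42) and 3.11 times higher than in Tal1-/- cells (10.3 ± 2.88). The difference in log2(FPKM + 1) was -1.48 from WT to Lmo2-/- (SE 0.59, 95% interval -2.74 to -0.22, unadjusted p = 0.0251, adjusted p = 1.0) and -1.57 from WT to Tal1-/- (SE 0.59, interval -2.83 to -0.31, unadjusted p = 0.0185, adjusted p = 0.70). The exact permutation test, two-sided, gave 0.10 for each, the smallest p that 3 against 3 libraries allow. Neither difference passed the correction over all genes. In the ordering of all tested genes by this difference, 0.464% lay lower than Cyp26a1 for Lmo2-/- and 1.33% for Tal1-/-. Between the mutants the difference was -0.092, with an interval of -1.36 to 1.17 that leaves room for changes of more than 2-fold either way. Libraries that do not overlap were met in 8.21% of all genes between WT and Lmo2-/- and in 12.6% between WT and Tal1-/-, and Cyp26a1 was the 1 of the 8 genes for which this held in each. From the level above 92.0% of tested genes in WT, Cyp26a1 stood above 72.9% in Lmo2-/- and 70.1% in Tal1-/- Flk-1+ cells.

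Some markers of early mesoderm were lower in the mutants, as Cyp26a1 was, and others were not. The 7 markers Kdr, T, Mesp1, Mixl1, Eomes, Pdgfra and Etv2 summed to 323 to 675 FPKM in WT, 235 to 334 in Lmo2-/- and 244 to 346 in Tal1-/- Flk-1+ libraries, none of them being at 0 throughout a group. Their median difference was -0.86 from WT to Lmo2-/- and -0.73 from WT to Tal1-/-, beside -0.01 over all genes in each, with 0 of 7 called. Eomes, a T-box factor of gastrulating mesoderm, was 98.3 to 122 in WT, 44.2 to 63.4 in Lmo2-/- and 40.1 to 63.6 in Tal1-/- libraries, again with no overlap between WT and either mutant. T, the marker of nascent mesoderm, was 43.3 to 122 in WT, 19.3 to 64.6 in Lmo2-/- and 16.4 to 35.2 in Tal1-/- libraries, so that WT overlapped with Lmo2-/- through 1 library and lay above all of Tal1-/-. Mixl1 and Pdgfra went another way in Tal1-/- libraries, with Mixl1 at 54.9 to 129 against 30.7 to 122 in WT and Pdgfra at 40.9 to 45.4 against 22.5 to 42.9. Mesp1 overlapped between WT (2.19 to 5.39) and Lmo2-/- libraries (2.58 to 6.80). Kdr, which codes for the sorted Flk-1, was 100.2 to 252 in WT and 101.4 to 151 in Lmo2-/- libraries. In Tal1-/- libraries it was 68.7 to 86.0, below every WT library. Etv2 was 6.24 to 10.96 in WT, 3.25 to 6.13 in Lmo2-/- and 3.255 to 13.7 in Tal1-/- libraries, overlapping WT only in the last. The part of these marker differences in the Cyp26a1 values was not tested, and in such bulk libraries fewer Cyp26a1-positive cells and less Cyp26a1 RNA per cell cannot be told apart.

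**Figure D2:**
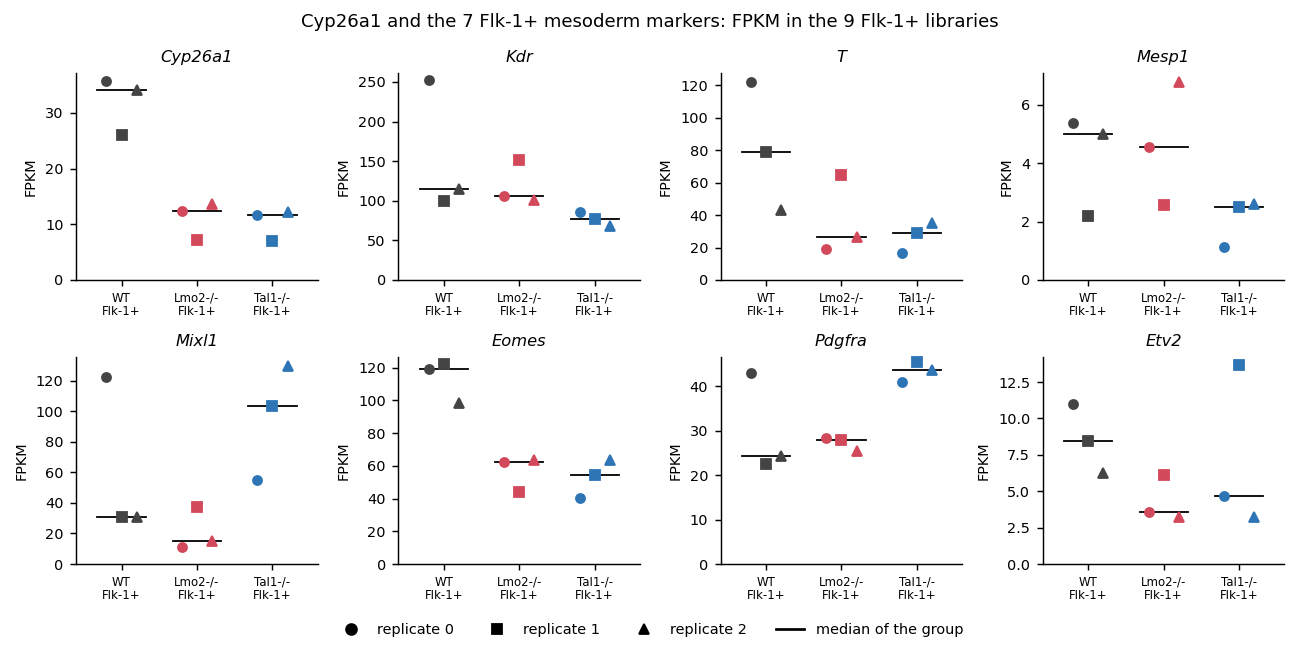
FPKM (linear axis from 0, different for each panel) of Cyp26a1 and of 7 markers of Flk-1+ mesoderm in the 9 Flk-1+ libraries, with 1 symbol for each replicate and a bar at the group median. The 3 WT libraries lie above all 6 mutant libraries for Cyp26a1 and for Eomes (98.3 to 122 against 40.1 to 63.6), whereas T overlaps between WT and Lmo2-/-, and Mixl1 and Pdgfra are not lower in Tal1-/-.

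In Flk-1+ cells the other CYP26 genes did not reach the level of Cyp26a1. Cyp26b1 was at most 0.803 FPKM in any Flk-1+ library, and Cyp26c1 at most 0.487. In HE1, Cyp26b1 was 4.39 and 0.966 in WT replicates 0 and 1, where Cyp26a1 was 0.435 and 7.74, and 0 in both libraries labelled Lmo2-/-. Neither gene passed the filter, so Cyp26a1 was the only hydroxylase gene of the family that could be tested.

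The synthesis gene Aldh1a2 (chromosome 9, 71215789 to 71296243, plus strand) was low wherever it was found. It was 0.747, 0.391 and 0.369 FPKM in WT, 0.711, 1.64 and 0.641 in Lmo2-/-, and 0.101, 4.36 and 2.54 in Tal1-/- Flk-1+ libraries. The Tal1-/- group held both the lowest and the highest of the 9 values, a 43.2-fold span, and overlapped the others. The difference from WT to Tal1-/- was 0.88 (unadjusted p = 0.0963, adjusted p = 0.902). Endoderm markers, a cell type that could also be present, were all matched (8 of 8). They summed to 1.72 to 22.5 in Tal1-/- Flk-1+ and to at most 3.60 in all other libraries, with Foxa2, Apoa1 and Ttr at 0 throughout the Tal1-/- group. Within that group the endoderm sum was 22.5 in replicate 0, of which Apob alone was 18.6, and Aldh1a2 was lowest there. In replicate 1 the sum was 1.72 and Aldh1a2 was highest. The part of endoderm cells in the Aldh1a2 values was not tested. Of the related enzymes, Aldh1a1 was listed at 0 in all 13 libraries and Aldh1a3 was at most 0.238. Rdh10, which makes the retinaldehyde that ALDH1A2 oxidises, ranged from 0.415 to 3.84.

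The carriers are small proteins that hold retinoic acid in the cytoplasm, CRABP2 being the one that passes it to RARs in the nucleus. Crabp1 (chromosome 9, 54764748 to 54773110, plus strand) was 10.6, 16.1 and 7.38 FPKM in WT, 11.1, 19.9 and 31.9 in Lmo2-/-, and 14.0, 20.02 and 5.55 in Tal1-/- Flk-1+ libraries. The highest value belonged to an Lmo2-/- library, but all 3 groups overlapped. From WT to Lmo2-/- the difference was 0.77 (adjusted p = 1.0). Crabp2 (chromosome 3, 87948666 to 87953376, plus strand) was about an order of magnitude lower, with 0.858, 1.04 and 0.494 in WT, 0.546, 3.01 and 2.87 in Lmo2-/-, and 2.14, 0 and 2.33 in Tal1-/- libraries. Here too the groups overlapped.

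The RAR genes code for the receptors that bind all-trans retinoic acid. Rara (chromosome 11, 98927818 to 98974942, plus strand, overlapping the small RNA gene Gm22061) was 10.1, 5.64 and 4.37 FPKM in WT, 6.99, 9.42 and 9.27 in Lmo2-/-, and 11.3, 21.5 and 3.99 in Tal1-/- Flk-1+ libraries. Rarg (chromosome 15, 102234938 to 102257517, minus strand) was 7.40, 11.5 and 5.0 in WT, 8.77, 7.27 and 15.6 in Lmo2-/-, and 9.77, 5.48 and 5.64 in Tal1-/- libraries. Both genes overlapped between all Flk-1+ groups, with Rara spanning 5.39-fold among the Tal1-/- libraries alone. Rarb (chromosome 14, 16430839 to 16819156, minus strand), the receptor gene that holds the promoter repeat shown above, stayed under 1 FPKM, with 0.235, 0.239 and 0.0677 in WT, 0.373, 0.463 and 0.941 in Lmo2-/-, and 0.371, 0 and 0.774 in Tal1-/- libraries. The 3 Lmo2-/- values were above the 3 WT values, but at levels below the filter no test was made.

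The RXR genes code for the common partners of the RARs and of other nuclear receptors. Rxra (chromosome 2, 27676440 to 27762957, plus strand) was 16.7, 9.38 and 2.95 FPKM in WT, 3.27, 5.33 and 5.53 in Lmo2-/-, and 5.65, 12.2 and 2.32 in Tal1-/- Flk-1+ libraries. Its WT libraries spanned 5.67-fold and took in every Lmo2-/- value, with a difference of -0.68 (adjusted p = 1.0). Rxrb (chromosome 17, 34031812 to 34038399, plus strand) was 4.81, 14.4 and 7.11 in WT, 12.03, 8.24 and 14.1 in Lmo2-/-, and 2.28, 2.998 and 5.03 in Tal1-/- libraries. All Tal1-/- values were below all Lmo2-/- values, while the WT group overlapped both. The difference was -1.51 from Lmo2-/- to Tal1-/- (SE 0.64, interval -2.90 to -0.12, unadjusted p = 0.0352, adjusted p = 0.833, exact permutation p = 0.10) and -1.06 from WT to Tal1-/- (adjusted p = 0.905). Rxrb was the 1 of the 8 genes whose libraries did not overlap between the mutants, as did those of 13.3% of all genes.

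**Figure D3:**
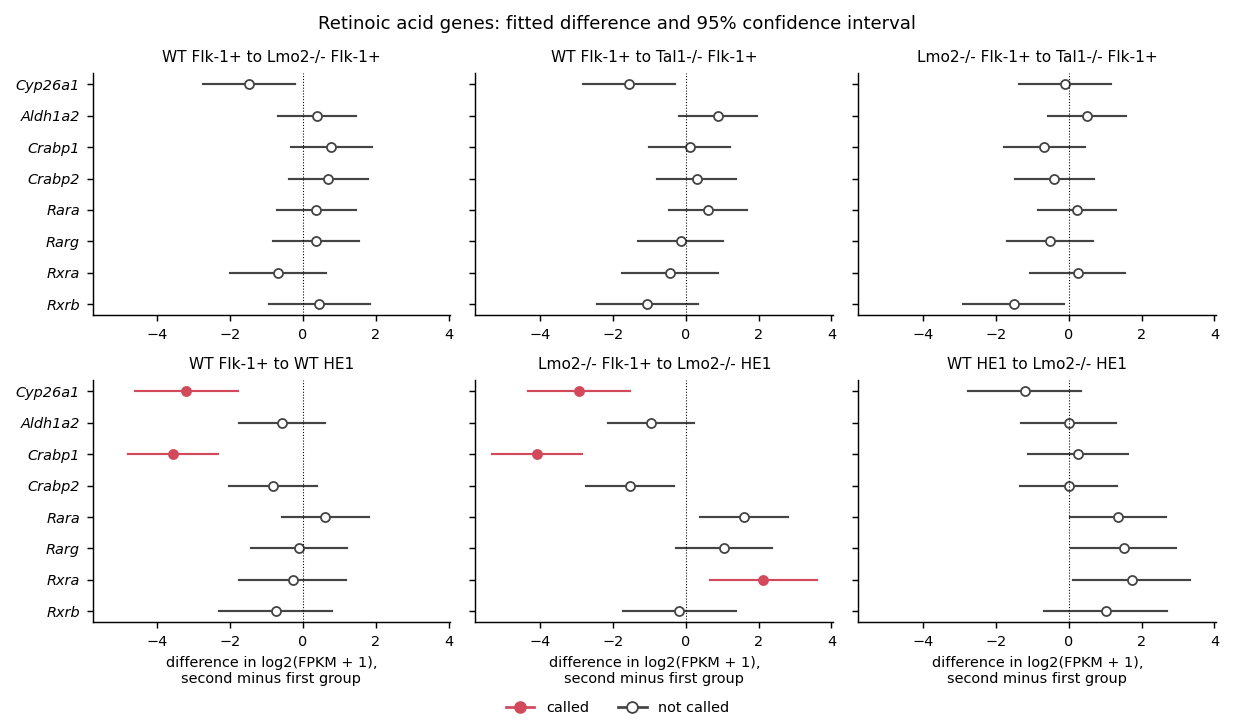
Fitted difference in log2(FPKM + 1), second minus first group, with its 95% confidence interval (bars) for the 8 retinoic acid genes tested in the 6 pairwise comparisons, with filled symbols where the gene was called. No gene is called between Flk-1+ groups or between HE1 groups, Cyp26a1 and Crabp1 are called lower in HE1 of both genotypes, and Rxra is called higher in Lmo2-/- HE1 (on the deposited scale, not under the other scalings).

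The next question was what happened to these genes between HBs and HE1. Cyp26a1 and Crabp1 fell in both genotypes. Of the 8 genes, 2 were called from WT Flk-1+ to WT HE1, both lower, where 6.98% of all genes were called (6.04% higher and 0.942% lower). From Lmo2-/- Flk-1+ to Lmo2-/- HE1, 3 were called, 2 lower and 1 higher, where 19.6% of all genes were called (17.2% higher and 2.38% lower). The median difference of the 8 genes was -0.66 in WT and -0.57 in Lmo2-/-, beside 0.11 and 0.30 over all genes. Most calls over all genes were thus for higher values in HE1, a balance that another scaling altered. Higher calls made up 86.5% of those in WT and 87.9% in Lmo2-/- cells on the deposited scale, 64.1% and 54.9% after quantile normalisation, and 57.0% and 44.4% with libraries set to a common median, which moved the median of all genes to -0.24 and -0.34. Cyp26a1 and Crabp1 were called lower in both genotypes under either scaling.

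Cyp26a1 was 0.435 and 7.74 FPKM in the WT HE1 libraries and 1.33 and 0 in those labelled Lmo2-/-. All 4 values except 7.74 were below every Flk-1+ value, and 7.74 was below every WT Flk-1+ value. The difference was -3.20 in WT (SE 0.65, interval -4.62 to -1.79, adjusted p = 0.00767) and -2.94 in Lmo2-/- cells (SE 0.65, interval -4.35 to -1.53, adjusted p = 0.00607), each with an exact permutation p of 0.20, the smallest that 2 against 3 libraries allow. Without WT HE1 replicate 0 the WT difference was -1.90 (adjusted p = 0.133), and without Lmo2-/- HE1 replicate 1, at 0 for this gene, the Lmo2-/- difference was -2.33 (adjusted p = 0.0635), so that neither call held without that library. The Lmo2-/- call also went without Lmo2-/- Flk-1+ replicate 2, when the group means dropped under 10 FPKM (difference -2.78, adjusted p = 0.0255). The fall did not differ detectably between genotypes, with an interaction of 0.27 (interval -1.73 to 2.26, adjusted p = 0.935). Within HE1 the difference from WT to Lmo2-/- was -1.21 (interval -2.76 to 0.33, adjusted p = 0.356), and the libraries overlapped.

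Crabp1 was listed at 0 in both WT HE1 libraries and at 0.418 and 0 in the Lmo2-/- HE1 libraries, against 7.38 to 31.9 in WT and Lmo2-/- Flk-1+ cells. No HE1 value came near the Flk-1+ range in either genotype. The fitted difference was -3.57 in WT (SE 0.58, adjusted p = 0.00176) and -4.09 in Lmo2-/- cells (SE 0.58, adjusted p = 0.000464). Since values of 0 enter, these sizes depend on the added 1, and the WT difference became -6.77 with 0.1 added instead. The interaction was -0.52 (adjusted p = 0.833). In WT the call was lost without WT Flk-1+ replicate 1, when the mean fell under 10 FPKM, although the adjusted p was still 0.0111.

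The other carrier gene Crabp2, the synthesis gene Aldh1a2 and Rarb were each listed at 0 in all 4 HE1 libraries. For Crabp2 the difference was -1.53 in Lmo2-/- (unadjusted p = 0.0173, adjusted p = 0.0620) and -0.83 in WT cells (adjusted p = 0.401). Its size depends on the added 1 as well, and the Lmo2-/- difference became -4.18 with 0.1 added instead (limma, adjusted p = 0.0373). For Aldh1a2 the difference was -0.58 in WT (adjusted p = 0.575) and -0.96 in Lmo2-/- cells (adjusted p = 0.214). Neither Crabp2 nor Aldh1a2 averaged above 10 FPKM in any group, so the FPKM limit kept both from a call in every comparison. Of the 9 genes, 4 were listed at 0 in each WT HE1 library, 3 in Lmo2-/- HE1 replicate 0 and 5 in replicate 1, beside at most 2 in any Flk-1+ library. HE1 libraries also listed more generally expressed genes at 0. Of 4079 genes with a median above 10 FPKM, 34 to 191 were at 0 in HE1 libraries and 1 to 16 in Flk-1+ libraries. Libraries did not overlap for 5 of the 8 genes in WT (Aldh1a2, Cyp26a1, Crabp1, Crabp2 and Rxrb, all lower in HE1), where 44.9% of all genes did not, and for 6 in Lmo2-/- (Aldh1a2, Cyp26a1, Crabp1 and Crabp2 lower, Rara and Rxra higher), where 47.0% of all genes did not.

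Part of the mesoderm markers were lower in HE1 as well. In WT, 4 of 7 were called lower in HE1 (median difference -3.39), and in Lmo2-/- 3 of 7 (median -2.43), with T and Mesp1 listed at 0 in all HE1 libraries. Kdr was not lower in WT HE1 (235.6 and 275 FPKM against 100.2 to 252 in WT Flk-1+), and Pdgfra was 37.3 and 94.5 in Lmo2-/- HE1 against 25.3 to 28.3 in Lmo2-/- Flk-1+ libraries. The part of the markers in the fall of Cyp26a1 and Crabp1 was not tested.

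The receptor genes Rara, Rarg, Rxra and Rxrb, by contrast and unlike Rarb, were measured in every HE1 library. Rara was 9.20 and 11.4 FPKM in WT HE1 and 21.9 and 35.2 in Lmo2-/- HE1. Rarg was 6.45 and 7.54 in WT HE1 and 9.10 and 49.9 in Lmo2-/- HE1. Rxra was 6.48 and 6.31 in WT HE1 and 14.3 and 38.4 in Lmo2-/- HE1. For each of these 3 genes both libraries labelled Lmo2-/- lay above both labelled WT, and replicate 1 was the highest of all 13 libraries. Rxrb was 4.36 and 4.37 in WT HE1 and 2.77 and 29.8 in Lmo2-/- HE1, so that its Lmo2-/- values fell on either side of WT, 10.8-fold apart.

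None of the 8 genes was called between WT and Lmo2-/- HE1, where 3.01% of all genes were, and the libraries of 39.7% of all genes did not overlap, as did those of Rara, Rarg and Rxra. The differences were 1.35 for Rara (unadjusted p = 0.0451, adjusted p = 0.230), 1.51 for Rarg (unadjusted p = 0.0412, adjusted p = 0.221) and 1.73 for Rxra (unadjusted p = 0.0372, adjusted p = 0.211), each with an exact permutation p of 0.33, the smallest that 2 against 2 libraries allow. These values turned on the Lmo2-/- HE1 library used. With 1 of them left out, the other is assumed to vary like the remaining groups. Without replicate 0, Rarg (2.67, adjusted p = 0.00769) and Rxrb (2.52, adjusted p = 0.0132) were called, but so were 2177 of 13585 genes. Without replicate 1, 115 of 13665 genes were called and none of the 8, with differences of 0.34 for Rarg (adjusted p = 0.888), 1.05 for Rxra (adjusted p = 0.662) and 1.02 for Rara (adjusted p = 0.604). Some markers of smooth muscle and fibroblasts moved with these values and others did not. All 8 were matched and summed to 198 to 252 FPKM in WT HE1 and 498 to 1595 in Lmo2-/- HE1, with 3 of 7 called higher in Lmo2-/- and none at 0 throughout. Acta2, Col1a1, Col1a2, Col3a1 and Postn were higher in both Lmo2-/- than in both WT HE1 libraries. Tagln was 50.5 and 53.7 in WT HE1 and 59.0 and 24.1 in Lmo2-/- HE1. Myh11 and Cnn1 were at 0 in Lmo2-/- HE1 replicate 1. The part of these markers in the receptor values was not tested.

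From Flk-1+ to HE1 within the Lmo2-/- genotype, Rxra rose by 2.13 in log2(FPKM + 1) (SE 0.68, interval 0.66 to 3.60, adjusted p = 0.0359). Within WT it differed by -0.28 (adjusted p = 0.847). The test of the difference between genotypes gave 2.41 (SE 0.96, interval 0.33 to 4.49, unadjusted p = 0.0264, adjusted p = 0.326), and none of the 8 genes was called in this interaction, where 0.348% of all genes were. The Rxra call was lost, with a smaller difference, without Lmo2-/- HE1 replicate 1 (1.45, adjusted p = 0.259), after quantile normalisation (1.34, adjusted p = 0.206) and with a common median (1.19, adjusted p = 0.208). It was also lost without each of the 3 Lmo2-/- Flk-1+ libraries, where the difference stayed near its size (1.93, 2.22 and 2.24, adjusted p = 0.0963, 0.0628 and 0.0677). Rara, with 1.60 in Lmo2-/- (unadjusted p = 0.013, adjusted p = 0.0508) and 0.62 in WT cells (adjusted p = 0.552), had an interaction of 0.98 (adjusted p = 0.634).

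The wider pathway was followed with 6 lists that did not contain these 9 genes. They held 89 symbols, of which 88 were matched and 54 tested: 3 of retinoid uptake and binding, 10 retinol and retinaldehyde enzymes, none of the hydroxylases, 6 other RXR genes and partners, 16 co-repressors and co-activators and 20 known retinoic acid targets, with Nrip1 in the last pair. Between the Flk-1+ groups 0 of 54 were called by limma, and unadjusted p-values under 0.05 were found for 1 gene from WT to Lmo2-/-, 3 from WT to Tal1-/- and 4 from Lmo2-/- to Tal1-/-. Among all 13802 genes tested, 307, 843 and 822 had such a p in that order. Among the pathway genes in these comparisons Hoxb1 had the smallest unadjusted p, and it is named after its values were seen. This hindbrain and mesoderm homeobox gene, induced by retinoic acid, was 2.06 to 4.19 FPKM in WT, 3.55 to 5.95 in Lmo2-/-, and 8.36, 12.8 and 20.2 in Tal1-/- Flk-1+ libraries. The Tal1-/- values were above those of every other Flk-1+ library, with a difference of 1.84 from WT (unadjusted p = 0.000856, adjusted p = 0.268).

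From Flk-1+ to HE1, 6 of the 54 pathway genes were called in WT, all higher, and 12 in Lmo2-/-, 11 higher and 1 lower. Beside these stand the 6.98% and 19.6% of all genes called, most of them also higher. The called pathway genes were known targets (5 of 20 in each genotype) and co-regulators (2 of 16 in WT and 7 of 16 in Lmo2-/-), besides the oxysterol receptor gene Nr1h2, which fell by 2.15 in Lmo2-/- cells (adjusted p = 0.0196). In WT the transglutaminase gene Tgm2 rose by 3.61 (adjusted p = 0.000299), from at most 0.447 FPKM in Flk-1+ to 12.5 and 16.1 in HE1. Meis1, a homeobox gene of haematopoietic progenitors whose row is shared with Gm37818, rose by 3.0 (adjusted p = 0.00229), the zinc finger gene Tshz1 by 2.71 (adjusted p = 0.00501) and the co-activator gene Ncoa3 by 1.52 (adjusted p = 0.038). In Lmo2-/- cells Tshz1 rose by 4.72 (adjusted p = 9.5e-05), Nr2f2, an orphan receptor gene of venous endothelium and mesenchyme, by 4.06 (adjusted p = 0.000924), the co-activator gene Ncoa2 by 1.76 (adjusted p = 0.00389) and the co-repressor gene Nrip1 by 2.22 (adjusted p = 0.00398). These counts moved with the scaling, to 3 higher and 0 lower in WT and 2 higher and 1 lower in Lmo2-/- after quantile normalisation, and to 3 higher and 1 lower in WT and 2 higher and 3 lower in Lmo2-/- with a common median. Under both scalings Ncoa3 in WT and Ncoa2 and Nrip1 in Lmo2-/- cells lost their calls. Single libraries mattered as well. Ncoa3 lost its WT call without any 1 of 7 libraries, among them both of WT HE1, Tshz1 in WT without either WT HE1 library (adjusted p = 0.0563 and 0.0502), Nr2f2 without Lmo2-/- HE1 replicate 1, when its group mean was under 10 FPKM (2.60, adjusted p = 0.00333), and Nr1h2 without Lmo2-/- Flk-1+ replicate 2 or HE1 replicate 1 (adjusted p = 0.0775 and 0.116). The calls of Tgm2 and Meis1 in WT and of Tshz1 in Lmo2-/- cells held with each library left out. Between WT and Lmo2-/- HE1 and in the interaction 0 of 54 were called by limma, and 11 and 9 had an unadjusted p below 0.05, beside 2851 and 1672 of all 13802 genes. Without Lmo2-/- HE1 replicate 0 the numbers called were 9 and 4, beside 2177 and 1150 of 13585 genes, and without replicate 1 they were 1 and 0, beside 115 and 12 of 13665.

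**Figure D4:**
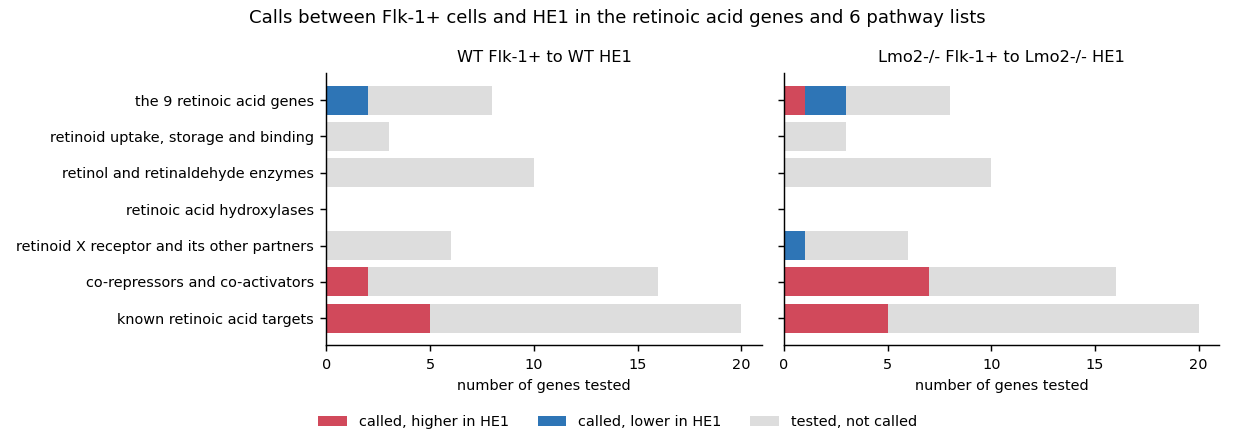
Number of genes tested (horizontal axis) in the 9 retinoic acid genes and in 6 pathway lists, from Flk-1+ to HE1 in WT (left) and Lmo2-/- (right), split into called higher in HE1, called lower and not called. The retinoic acid genes hold 2 lower calls in each genotype, while co-regulators and known targets hold only higher calls, 11 of the 54 pathway genes in Lmo2-/- and 6 in WT on the deposited scale, where other scalings left 2 and 3.

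Genes with the most similar profile were sought for each of the 6 retinoic acid genes that averaged above 10 FPKM in some group, among 7281 genes with that level, over the 13 libraries of log2(FPKM + 1). For Cyp26a1 they were Upp1 (Pearson r = 0.899, Spearman rho = 0.619), Tdgf1 (r = 0.887, rho = 0.923) and Gtf2h3 (r = 0.876, rho = 0.647). Tdgf1, which codes for the Nodal co-receptor Cripto of early mesoderm, was first of all candidates by rank correlation, whereas Upp1 and Gtf2h3 dropped to places 182 and 135. For Crabp1 the nearest were Dpysl5 (r = 0.970), Cdh4 (r = 0.969) and Vrtn (r = 0.962). For the receptor genes they were 0610009O20Rik, Nploc4 and Ctdspl (r = 0.947, 0.939 and 0.932 with Rara), Foxk1, 2310067B10Rik and Hdac5 (r = 0.930, 0.923 and 0.921 with Rarg), Tmem43 and Sipa1l3 (r = 0.932 and 0.910 with Rxra), and Stub1, Suv420h2 and Trim41 (r = 0.955, 0.951 and 0.912 with Rxrb). The rows of Hdac5 and Stub1 also carry a microRNA gene. All points share libraries, stage and scaling, and the receptor profiles share the high Lmo2-/- HE1 replicate 1. Without it r with Rarg was 0.643 for 2310067B10Rik, 0.721 for Hdac5 and 0.825 for Foxk1. For the genes nearest the other receptor genes, r without it was 0.891 to 0.916 with Rara, 0.834 to 0.878 with Rxra and 0.869 to 0.954 with Rxrb.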

How the data were processed

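All 13 RNAseq libraries (9 of Flk-1+ cells, 4 of HE1) entered. Per the methods and submitters' notes, the authors aligned reads with TopHat2 2.0.9, assembled transcripts with Cufflinks 2.0.0, merged them and deposited FPKM per library from Cuffnorm for 45250 genes. A deposited table of the authors' comparisons (Cuffdiff 2.0.1 fold changes, p-values and q-values) was not used. All 13 per-sample columns were used and 0 left out. Replicate numbers come from column names.

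The 13802 genes tested had a locus over 200 bp and reached 1 FPKM in 2 or more libraries. A group factor was fitted to log2(FPKM + 1) by limma 3.58.1 (R 4.3.3), with a mean-variance trend, over every library. Tests of 6 pairs of groups and of the interaction between genotype and stage were two-sided, Benjamini-Hochberg adjusted over all genes, and called at an adjusted p below 0.05 with a mean FPKM above 10 in a group compared. The scale understates changes of low genes. Exact permutation tests were two-sided. The fit was tested on simulated data. Other steps used Python 3.11.15 (matplotlib 3.10.9, numpy 2.4.6, pandas 2.3.3 and scipy 1.17.1).

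The genes, lists and tests were chosen with earlier results of these data known. Named were all 9 genes, up to 4 called pathway genes per comparison with the smallest adjusted p, and the 3 genes most correlated with each gene above 10 FPKM, with Nr1h2, Hoxb1, Egr1, the other family enzymes and the single cell type markers named after their values were seen. A result of this rule is not reported here. Gene positions are from GENCODE M21 and sequences from RefSeq (GRCm38.p6). Alternatives were another pseudocount, filters, scalings, weights, a replicate block and leaving out each library, which for the pathway genes were added after seeing the data.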

Additional observations from a re-analysis of the deposited data

How the results depend on the processing

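Of 636 alternative values for 28 differences of single genes, 606 kept direction and side of the threshold, 5 passed it anew, 15 lost it and 10 changed sign, all 10 in differences that were not called. Where the library left out belonged to no group compared, the difference itself could not change, only its error and p. Dropping the FPKM limit on the calls also left the fit unchanged. Differences that were never called count among those kept. Of the 8 genes, 0 were called between Flk-1+ groups and in the interaction under every alternative, including each library left out. From WT Flk-1+ to HE1 the count stayed at 2, and was 1 to 2 with single libraries left out (1 without WT Flk-1+ replicate 1 or WT HE1 replicate 0). In Lmo2-/- it was 3, 4 with a stricter filter (Rara added, adjusted p = 0.0394), 1 with array weights, and 1 to 5 with libraries left out (1 without Lmo2-/- Flk-1+ replicate 2 or HE1 replicate 1, 5 without HE1 replicate 0). Between HE1 groups it was 0, and 0 to 2 with libraries left out. The Rxra call was also lost at a difference of 2.13 without the filter (adjusted p = 0.0647), with only the groups compared (0.0510) and with array weights (0.222), and at 1.80 with the replicate number as a block (0.0655). With Rxra lost, the Lmo2-/- count was 2 without the filter, with only the groups compared and with the block. It was also 2 after quantile normalisation and with a common median. The Cyp26a1 call in Lmo2-/- was lost with array weights (-3.08, adjusted p = 0.0560). The Cyp26a1 difference from WT was -1.64 to -1.22 for Lmo2-/- and -1.71 to -1.34 for Tal1-/- Flk-1+ cells with libraries left out. With libraries left out, the sign turned for Cyp26a1 between the mutants (-0.35 to 0.14), between HE1 groups (-2.52 to 0.091) and in the interaction (-1.04 to 1.57), and for Rxra in WT from Flk-1+ to HE1 (-0.88 to 0.21). With 0.1 added the interaction was -0.88 for Cyp26a1 and 0.36 for Crabp1, and with array weights Rxra was 0.25 in WT. The cause was not tested. Replicate numbers did not pair the libraries (r of deviations -0.184 to 0.169 for same-numbered Flk-1+ libraries). With a block on them, 0 retinoic acid genes were called between Flk-1+ groups. From Flk-1+ to HE1, 2 were called in WT, as without the block, and 2 in Lmo2-/-, where 3 were called without it. Over all genes, calls from Flk-1+ to HE1 in Lmo2-/- went from 2707 to 976 with array weights, 1373 with a common median, 1248 after quantile normalisation and 1465 with only the groups compared, and in WT from 964 to 1682 with array weights. Between HE1 groups they went from 415 to 51, 230, 212 and 0 in the same order. Pathway genes called from Flk-1+ to HE1 were 3 to 11 in WT and 3 to 15 in Lmo2-/- over settings with all libraries, and 2 to 8 and 6 to 15 with single libraries left out (fewest without either WT HE1 library, and without Lmo2-/- Flk-1+ replicate 2 or HE1 replicate 1). Unknown depth means that no detection limit can be given for genes listed at 0.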
